A study of Homo sapiens with 18 samples.

Results

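Human foregut endoderm that was left without retinoic acid, CHIR99021 and BMP4 was followed from day 6 to day 9 of differentiation. The cells were made from H1, an established human embryonic stem cell line of wild-type genotype, and RNA was measured in bulk by stranded mRNA sequencing. The 6 libraries described here were those labelled as untreated foregut endoderm, 3 at day 9 and 3 at day 6, out of 18 libraries in 6 groups. The other groups had all-trans retinoic acid (RA, 2 µM for 24 h between day 5 and day 6), CHIR99021 (a GSK3 inhibitor that activates Wnt signalling, 2 µM) with the growth factor BMP4 (50 ng/mL) for 72 h between day 6 and day 9, or both in turn. Of these, only the 3 day 9 and 3 day 6 libraries given RA and neither CHIR99021 nor BMP4 were used for a comparison. All groups came from a single cell line, and the labels record no sorting of cells before RNA was taken, so each library may hold more than 1 cell type. Whether the replicates were grown as separate cultures is not stated in the labels, and the p-values below reflect only the variation among these libraries, which may be technical.

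The foregut is the anterior part of the endodermal tube. It is subdivided along its length into the pharynx, with its pouches and the thyroid, and the oesophagus, trachea, lungs, stomach, liver and pancreas. RA, Wnt, BMP, FGF and Hedgehog signals from the tube and from surrounding mesoderm set these domains: RA, Wnt and BMP favour posterior and ventral fates, and FOXA and SOX factors mark the early endoderm before regional factors take over. Endoderm that receives no RA is used as a model of anterior foregut.

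Levels are given as counts per 1e6 counts of the library (CPM) scaled by trimmed mean of M-values, in replicate order 1, 2 and 3, and fold changes on a log2 scale are day 9 over day 6 with their standard error (SE). A gene was called higher or lower where its p from edgeR's quasi-likelihood test, after Benjamini-Hochberg adjustment across the 15531 genes tested, was under 0.05. The words rose and fell are used for called genes alone. Because RNA was pooled from all cells of a culture, fewer cells of a type and less RNA per cell cannot be told apart.

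Total counts were 25.37, 5.89 and 5.79 M in the day 9 libraries and 7.53, 6.33 and 9.23 M in the day 6 libraries, where M is 1e6 counts. The first principal component of log2 CPM over the 6 libraries held 72.7% of the variance and separated the days. Across genes, which are not independent replicates, libraries correlated at 0.983 to 0.985 within day 9, 0.982 to 0.988 within day 6 and 0.930 to 0.940 between days. Mitochondrially encoded genes held 6.04% to 7.47% of counts at day 9 and 5.51% to 5.83% at day 6. Day 6 replicates 1 and 3 stood apart from the other untreated libraries. They carried 132.8 and 205.1 CPM of 31 pseudogenes that were at least 10-fold higher in the 12 treated libraries than in the remaining untreated ones. In those untreated libraries the 31 pseudogenes summed to 6.84 to 11.5 CPM. HOXB1, a direct RA target at 140.2 ± 32.9 CPM in RA-treated day 6 cells, had no reads in any of the 6 untreated libraries. This describes RA-treated day 6 cells alone and cannot speak for every treated library. The 31 pseudogenes also summed to 1040 to 1115 CPM in the libraries given CHIR99021 and BMP4 without RA. Counts without day 6 replicates 1 and 3 (day 6 replicate 2 alone, assumed to vary like the other groups) are given below where they moved by over 1.5 times. The part of the split in the results was otherwise not tested.

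Of 15531 tested genes, 7287 were called (46.9%). 3735 (24.0%) were higher and 3552 (22.9%) lower at day 9. These 2 shares are the background for the list counts below. The libraries of the 2 days did not overlap for 6639 of the 7287 called genes, so non-overlap adds little for a called gene. At least 2-fold changes were fewer, with 1002 genes higher (6.45%) and 1116 lower (7.19%). Day 6 replicate 2 alone gave 4507 called genes, 2183 higher and 2324 lower. On the deposited TPM values, 27.8% of calls were higher in place of 51.3%, with 2126 higher and 5511 lower, and the median of all tested genes moved by -0.13 on the log2 scale. That fit also differed in its test (limma) and in the genes tested (17510). With RLE factors 3568 genes were higher and 3750 lower, and with upper quartile factors 3807 and 3474. List counts on TPM are given where one moved by over 1.5 times or the balance of rises and falls changed.

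The foregut label was checked against its markers. FOXE1, the forkhead factor of thyroid and pharyngeal endoderm, was at 304, 305 and 278 CPM at day 9, against 6.84, 6.05 and 4.72 CPM at day 6. SOX17, a definitive endoderm factor, was at 2.61, 3.40 and 4.49 CPM at day 9, against 26.9, 24.0 and 17.1 CPM at day 6. FOXA2, a factor of the whole endodermal tube, was at 37.2, 31.3 and 33.7 CPM at day 9, against 91.3, 89.6 and 95.2 CPM at day 6. The epithelial adhesion gene EPCAM was at 270.3, 283 and 262 CPM at day 9, against 359, 374 and 354 CPM at day 6. All 6 libraries held these endodermal and epithelial markers. FOXE1 and SOX17, like TLX1 and LMX1A described below, separated the days with no overlap, the first of them higher and SOX17 lower at day 9.

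Among called genes at 5 CPM or more on either day with no overlap between the days, the largest rise was that of TLX1. This homeobox factor is needed for the spleen in mice and is expressed in the pharyngeal arches. TLX1 was at 137, 135 and 157 CPM at day 9, against 0, 0.796 and 0.107 CPM at day 6, which is 5121 counts against 6 counts in all. Its log2 fold change was 9.04 ± 0.33 (SE, edgeR adjusted p = 7.0e-13). FOXE1 had a log2 fold change of 5.67 ± 0.61 (SE, edgeR adjusted p = 7.7e-06). Each of these genes is transcribed away from a noncoding gene that has a RefSeq start close by. TLX1NB, the noncoding neighbour of TLX1, was at 3.98, 5.11 and 7.43 CPM at day 9, against 0, 0 and 0 CPM at day 6, at least 42.3-fold higher with day 6 set to 3 counts over the group. PTCSC2, beside FOXE1 and named after its values were seen, was at 6.79, 6.47 and 4.67 CPM at day 9, against 0.268, 0.955 and 0.107 CPM at day 6 (log2 fold change 3.92 ± 0.46, adjusted p = 4.9e-07, edgeR). In both pairs the 3 day 9 libraries lay above the 3 day 6 libraries for the coding and the noncoding gene. The choice of all of these genes but PTCSC2 required this. The strand setting of the counting is not given in the sources used here, and TLX1NB overlaps TLX1 in RefSeq, so part of the reads of such pairs may be assigned to the wrong member. The stretches between the paired starts are shown because both genes of each pair moved together. They come from RefSeq on GRCh38.p14, are written on the plus strand from 5′ to 3′, and have CG dinucleotides in capitals. TLX1 lies at chr10:101131300-101137789, and the 153 bases before it (chr10:101131147-101131299) reach to a RefSeq start of TLX1NB on the minus strand. TLX1NB as a whole spans chr10:101089321-101141266, past the far end of TLX1, so this is not its outermost start. FOXE1 lies at chr9:97853226-97856717, and the 145 bases before it (chr9:97853081-97853225) reach to a RefSeq start of PTCSC2.
TLX1 and TLX1NB: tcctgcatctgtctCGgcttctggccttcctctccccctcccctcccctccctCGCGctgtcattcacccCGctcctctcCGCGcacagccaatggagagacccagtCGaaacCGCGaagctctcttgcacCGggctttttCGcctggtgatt
FOXE1 and PTCSC2: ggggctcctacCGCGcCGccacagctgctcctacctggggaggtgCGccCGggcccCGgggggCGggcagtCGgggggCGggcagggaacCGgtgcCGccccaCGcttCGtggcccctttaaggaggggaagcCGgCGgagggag
The first stretch has 62.7% G and C bases with 11 CG dinucleotides, and the second 77.9% with 15.

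**Figure D1:**
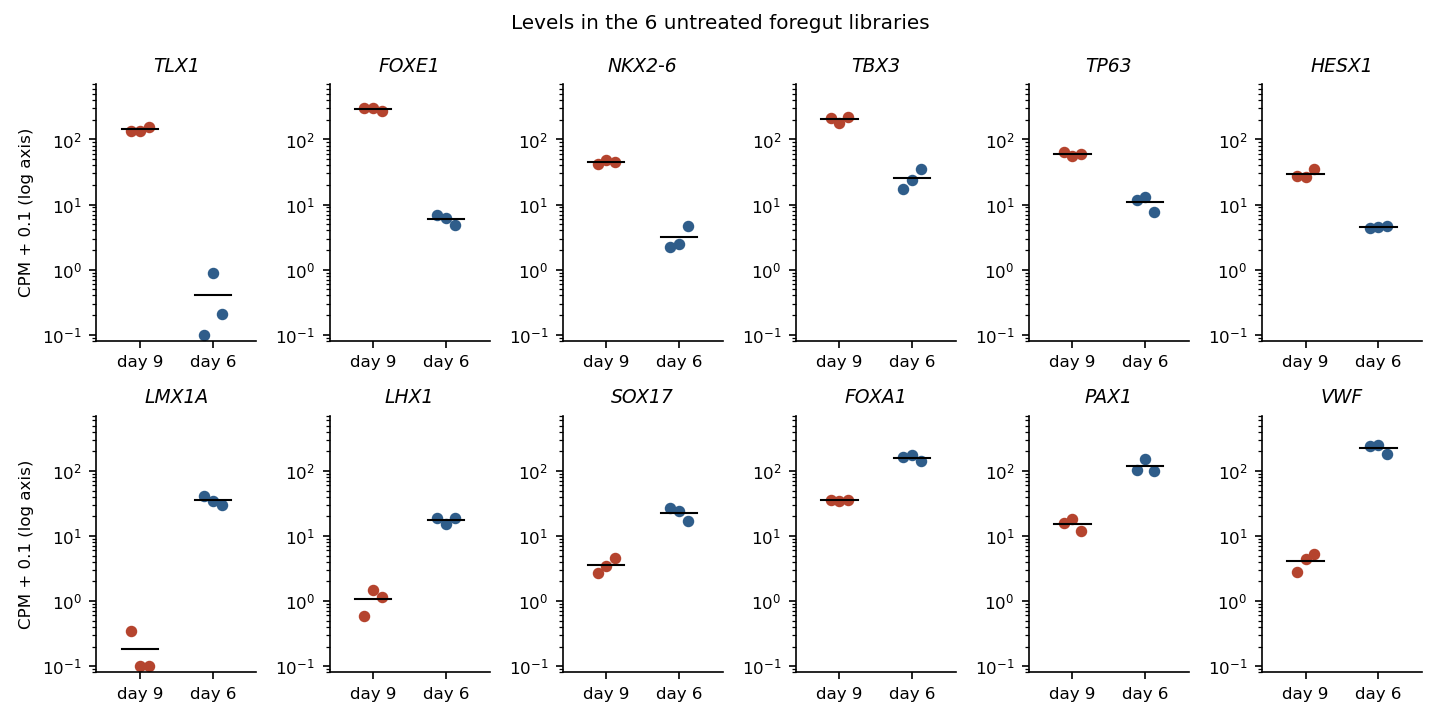
Levels of 12 genes in the 6 untreated libraries, as CPM with 0.1 added on a log axis, day 9 left and day 6 right. Points are libraries and horizontal lines are group means. TLX1, FOXE1, NKX2-6, TBX3, TP63 and HESX1 were higher in all 3 day 9 libraries, and LMX1A, LHX1, SOX17, FOXA1, PAX1 and VWF were lower.

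Among the other large rises were UNC5C, BHMT and ANKRD63. UNC5C, a netrin receptor, was at 152, 145 and 210.5 CPM at day 9, against 1.88, 2.23 and 2.47 CPM at day 6 (log2 fold change 6.25 ± 0.49, adjusted p = 2.8e-07). BHMT, which remethylates homocysteine with betaine, was at 71.7, 71.5 and 69.8 CPM at day 9, against 1.07, 1.27 and 1.502 CPM at day 6 (log2 fold change 5.76 ± 0.48, adjusted p = 3.6e-07). ANKRD63, an ankyrin repeat gene, was at 40.6, 38.3 and 49.4 CPM at day 9, against 0, 0 and 0.322 CPM at day 6 (ratio of summed counts 319.9, 95% counting interval 109 to 1553). Non-overlap of the days was a condition for the 12 largest rises and falls, so it adds no support for them. The peptidase inhibitor PI15 and the actin-severing protein SCIN had log2 fold changes of 6.59 ± 0.42 and 6.37 ± 0.46, and CYSLTR2, a receptor for cysteinyl leukotrienes, 6.23 ± 0.55. VGLL1, a cofactor of TEAD factors, rose, with 335 counts at day 9 and 2 at day 6 (ratio of summed counts 106, 95% counting interval 29.0 to 876). SPARCL1, a matricellular protein, had 235 counts at day 9 and 3 at day 6 (ratio of summed counts 49.4, 95% counting interval 16.7 to 241). The methyltransferase TMT1A completed the 12 largest rises, with a log2 fold change of 4.94 ± 0.48. All 12, TLX1, TLX1NB and FOXE1 among them, were called under every setting in which they were tested.

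LMX1A had the largest fall among such genes. This LIM homeobox factor of the roof plate and the developing inner ear (chr1:165201867-165356715) was at 0.241, 0 and 0 CPM at day 9, against 40.8, 34.9 and 30.05 CPM at day 6 (log2 fold change -7.67 ± 0.34, adjusted p = 3.8e-13). NOS2, the inducible nitric oxide synthase, was at 0.643, 0.851 and 1.21 CPM at day 9, against 129.6, 108 and 62.5 CPM at day 6 (log2 fold change -6.98 ± 0.30, adjusted p = 1.3e-12). VWF, the von Willebrand factor of endothelial cells and platelets, was at 2.69, 4.26 and 5.18 CPM at day 9, against 241, 254 and 180.3 CPM at day 6 (log2 fold change -6.01 ± 0.25, adjusted p = 2.3e-11). That the libraries of the 2 days lay apart was a condition for these 3 genes too. The neural genes among the 12 largest falls were PDYN, the dynorphin precursor, and GRIK1, a kainate receptor subunit. PDYN had a log2 fold change of -5.89 ± 0.39. GRIK1 had 3 counts at day 9 and 119 at day 6 (ratio of summed counts of day 6 to day 9 62.9, 95% counting interval 21.0 to 309). Of the transcription factors among these 12, SIM1, of hypothalamus and kidney, was at 0.0804, 0.170 and 0.173 CPM at day 9, against 7.24, 5.89 and 6.98 CPM at day 6. SOX21, which is expressed in anterior foregut, was at 0.281, 0.511 and 0.346 CPM at day 9, against 22.7, 18.9 and 13.7 CPM at day 6. DMRTA2, of the cerebral cortex, was at 0.241, 0.170 and 0.173 CPM at day 9, against 14.3, 12.1 and 9.23 CPM at day 6. In each of these 3 factors no day 9 library reached the day 6 range, which their choice required. KRT4, a keratin of mucosal squamous epithelium, kept 1 count at day 9 against 126 at day 6 (ratio of summed counts of day 6 to day 9 199.7, 95% counting interval 35.2 to 7949). TTC29, an axonemal protein, kept 1 against 145 (ratio of summed counts of day 6 to day 9 229.8, 95% counting interval 40.6 to 9139), and ITPRID1 3 against 111 (ratio of summed counts of day 6 to day 9 58.6, 95% counting interval 19.6 to 289). PRSS2, a trypsinogen with near-identical copies whose reads may be split between them, was at 0.321, 0 and 0 CPM at day 9, against 23.9, 19.1 and 13.7 CPM at day 6.

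Early endoderm factors were lower at day 9. Of 18 tested, 14 fell, against 22.9% of all tested genes, and 1 rose, against 24.0%. Their median log2 fold change was -1.26, and that of all tested genes 0.0037. FOXA1, a pioneer factor of endoderm, was at 35.7, 34.2 and 36.3 CPM at day 9, against 162, 173 and 145 CPM at day 6 (log2 fold change -2.17 ± 0.08, adjusted p = 2.7e-15). SOX17, whose levels are given above, had a log2 fold change of -2.82 ± 0.21 (edgeR adjusted p = 2.6e-10), and FOXA2 -1.41 ± 0.19 (edgeR adjusted p = 2.1e-05). FOXA1, FOXA2 and SOX17 did not overlap between days. The 3 largest falls of the list were those of GSC, LHX1 and EOMES. LHX1, a LIM homeobox factor of anterior mesendoderm, was at 0.482, 1.36 and 1.04 CPM at day 9, against 18.6, 15.4 and 18.9 CPM at day 6. GSC, the goosecoid homeobox factor, was at 0.201, 0 and 0.173 CPM at day 9, against 6.84, 5.09 and 3.33 CPM at day 6. EOMES, a T-box factor that starts endoderm formation, was at 1.17, 0.340 and 0.691 CPM at day 9, against 16.1, 7.003 and 5.37 CPM at day 6. All 3 fell to a small part of their day 6 level. PRDM1, a repressor with roles in the pharyngeal endoderm, was at 15.7, 18.7 and 14 CPM at day 9, against 87.5, 97.7 and 80.4 CPM at day 6. The zinc finger factors GATA4 and GATA6 fell by 1.91 and 1.10 on the log2 scale, and the receptors KIT and CXCR4 by 0.87 and 0.57. CER1, a secreted antagonist of Nodal, BMP and Wnt, was the exception and rose (48.3, 32.7 and 60.5 CPM at day 9, against 30.03, 14.5 and 12.9 CPM at day 6, log2 fold change 1.31 ± 0.34), a call that was lost with the pseudogene share as a covariate (edgeR adjusted p = 0.097). HHEX, a homeobox factor of ventral foregut, was at 32.1, 33.4 and 38.9 CPM at day 9, against 28.2, 35.8 and 51.6 CPM at day 6, and its days overlapped (edgeR adjusted p = 0.64).

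NKX2-6, NKX2-5 and NKX2-3 rose while PAX1 and PAX9 fell. Of 18 tested genes of pharyngeal pouch and arch endoderm, 8 rose and 4 fell, against 24.0% and 22.9% of all tested genes. Their median log2 fold change was 0.25. On TPM values 5 rose and 6 fell. NKX2-6, an NK2 homeobox factor of the pharyngeal pouches in mice, was at 42.4, 47.5 and 44.8 CPM at day 9, against 2.14, 2.39 and 4.61 CPM at day 6 (log2 fold change 3.81 ± 0.48, adjusted p = 2.1e-05). NKX2-5, which acts in the heart and in pharyngeal endoderm, was at 39.5, 33.7 and 35.9 CPM at day 9, against 4.69, 6.05 and 10.2 CPM at day 6. NKX2-3, of pharyngeal and gut tissue, was at 34.5, 34.9 and 37.2 CPM at day 9, against 7.51, 7.64 and 12.1 CPM at day 6. All 3 were above their day 6 range in each day 9 library. PAX1, a paired-box factor of the pharyngeal pouches and thymus, was instead at 15.6, 18.04 and 11.9 CPM at day 9, against 104, 150.4 and 98.7 CPM at day 6 (log2 fold change -2.94 ± 0.21, adjusted p = 3.7e-08). Its relative PAX9 was at 2.49, 2.89 and 2.94 CPM at day 9, against 14.1, 18.3 and 12.8 CPM at day 6 (log2 fold change -2.47 ± 0.29, adjusted p = 3.6e-07). Both were lower in every day 9 library than in any day 6 library. TBX1, a T-box factor of the pharynx, was at 16.2, 26.0 and 15.6 CPM at day 9, against 14.6, 11.5 and 20.4 CPM at day 6 and its days overlapped (edgeR adjusted p = 0.52). ISL1, which had a log2 fold change of 1.17 ± 0.38, was no longer called without day 9 replicate 3 (edgeR adjusted p = 0.063), day 6 replicate 1 (0.08) or day 6 replicate 2 (0.069), and SIX4 without day 9 replicate 2 (0.16), day 6 replicate 1 (0.13) or day 6 replicate 3 (0.1).

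Genes of the dorsal foregut and oesophagus moved mostly upward, with 8 of 13 tested members higher, 3 lower and a median log2 fold change of 1.80. The list shares FOXE1 and PAX9 with the pharyngeal one, and the falls were PAX9, SOX21 and KRT4. TP63, a regulator of stratified epithelia, was at 65.1, 55.7 and 60.0 CPM at day 9, against 11.8, 12.9 and 7.62 CPM at day 6 (log2 fold change 2.52 ± 0.19, adjusted p = 3.8e-09). BARX1, a homeobox factor of stomach and oesophagus mesenchyme, had 136 counts at day 9 and 1 at day 6 (ratio of summed counts 85.8, 95% counting interval 15.1 to 3414). NOG, a secreted BMP antagonist that separates oesophagus from trachea in mice, was at 13.7, 13.4 and 10.9 CPM at day 9, against 0.536, 0.318 and 2.36 CPM at day 6 (log2 fold change 3.41 ± 0.42, adjusted p = 2.9e-06). PITX1, a homeobox factor of oral epithelium and hindlimb, was at 49.8, 51.1 and 51.7 CPM at day 9, against 14.1, 7.003 and 11.6 CPM at day 6. KLF5, a zinc finger factor of epithelia, was at 80.6, 70.0 and 79.3 CPM at day 9, against 23.6, 16.7 and 16.2 CPM at day 6. TFAP2C, an AP-2 factor of surface ectoderm, was at 7.19, 9.02 and 7.95 CPM at day 9, against 2.68, 2.23 and 1.93 CPM at day 6. Each of these 6 genes was higher in all day 9 libraries than in any day 6 library. SOX2, the factor of dorsal foregut, oesophagus and stomach, was at 74.1, 75.6 and 74.5 CPM at day 9, against 98.5, 117 and 65.4 CPM at day 6, with overlapping days (edgeR adjusted p = 0.47). The keratins KRT5 and KRT14 of basal squamous cells had no reads in any of the 6 libraries, and the keratin KRT13 had 0 CPM in all day 9 libraries.

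TP63 and TFAP2C are also made by surface ectoderm, so markers of keratinocytes and surface ectoderm were read beside them. Of 11 such genes measured, 4 passed the filter on low counts and 2 of them rose, TP63 itself and GRHL3. GRHL3, a grainyhead factor of epidermis, was at 8.40, 3.40 and 3.97 CPM at day 9, against 1.88, 0.318 and 0.215 CPM at day 6. The summed level of the 11 genes was 71.5 to 89.5 CPM at day 9 and 23.1 to 31.9 CPM at day 6. Of the defining markers, KRT5, KRT14, KRT6A and IVL were at 0 in all 6 libraries, DSG3 and KRT1 had at most 0.0402 CPM, and TFAP2A was at 0.964, 0.851 and 0.518 CPM at day 9, against 0.134, 0.477 and 0.215 CPM at day 6.

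NKX2-1 of lung and thyroid, PDX1 of pancreas and CDX2 of hindgut had few or no reads. The thyroid list was not low throughout. It summed to 324 to 345 CPM at day 9, most of it FOXE1, against 37.8 to 59.9 CPM at day 6. NKX2-1, the factor shared by lung and thyroid, was at 1.04, 1.53 and 0.864 CPM at day 9, against 0.670, 0.477 and 0.537 CPM at day 6, a little higher in each day 9 library but not called (edgeR adjusted p = 0.082). PAX8, TG and TSHR, which mark thyroid cells, did not pass the filter on low counts, and SLC5A5 had at most 0.321 CPM. FOXE1 and DIO2, a deiodinase, were the 2 thyroid genes of 6 tested that rose. DIO2 (6.55, 3.91 and 5.88 CPM at day 9, against 0.938, 1.11 and 1.61 CPM at day 6, log2 fold change 2.20 ± 0.70) was no longer called without day 9 replicate 1 (edgeR adjusted p = 0.11), day 6 replicate 1 (0.067), day 6 replicate 2 (0.052) or day 6 replicate 3 (0.051), which left FOXE1 alone, as did day 6 replicate 2 alone and the pseudogene share as a covariate. Among 16 tested early respiratory genes 5 rose and 4 fell, against 24.0% and 22.9% of all tested genes. With the pseudogene share as a covariate 3 rose. CD47, a surface protein used to sort lung progenitors, was at 85.8, 103 and 83.1 CPM at day 9, against 16.1, 27.4 and 20.5 CPM at day 6 (log2 fold change 2.09 ± 0.13, adjusted p = 7.4e-11). IRX3, an Iroquois factor of lung and other epithelia, was at 2.45, 1.02 and 0.346 CPM at day 9, against 11.8, 13.5 and 9.55 CPM at day 6. IRX5, of the same family, was at 2.65, 3.06 and 1.56 CPM at day 9, against 19.8, 22.4 and 22.0 CPM at day 6. CD47 rose and both IRX genes fell with no overlap. Of 17 tested liver and pancreas genes 1 rose and 4 fell, against 24.0% and 22.9% of all tested genes, so falls were about as frequent as over all genes. PDX1, the pancreas and duodenum factor, had no reads. The gene that rose was TBX3, a T-box factor of liver bud and many other tissues, at 216, 182 and 222 CPM at day 9, against 17.2, 23.6 and 35.0 CPM at day 6 (log2 fold change 3.01 ± 0.23, adjusted p = 8.0e-08). The apolipoprotein genes fell. APOB was at 3.25, 1.87 and 7.60 CPM at day 9, against 17.96, 27.7 and 26.7 CPM at day 6. APOA2 was at 0.201, 0.340 and 0.864 CPM at day 9, against 3.89, 3.82 and 3.76 CPM at day 6. The hindgut factor CDX2 had no reads in these libraries. VIL1, an actin-bundling protein of gut epithelium, was at 5.10, 2.72 and 7.43 CPM at day 9, against 32.7, 34.1 and 25.2 CPM at day 6 (log2 fold change -2.58 ± 0.30, adjusted p = 5.7e-06).

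Factors of the anterior head were mostly lower. Of 11 tested anterior homeobox genes, 6 fell and 1 rose, and their median log2 fold change was -1.34. OTX2, a factor of anterior identity, was at 223, 185 and 157 CPM at day 9, against 478, 505 and 461 CPM at day 6 (log2 fold change -1.34 ± 0.19, adjusted p = 4.2e-05). OTX1 was at 37.3, 33.4 and 52.0 CPM at day 9, against 158, 147 and 192 CPM at day 6. DMBX1, a paired-like factor of brain, was at 11.4, 10.7 and 8.81 CPM at day 9, against 125, 107 and 209 CPM at day 6 (log2 fold change -3.797 ± 0.23, adjusted p = 1.6e-09). SIX3 and LMX1B, of forebrain and of mid-hindbrain, fell by 2.38 and 2.56 on the log2 scale. No day 9 library reached the day 6 range for these genes. The single rise was HESX1, a homeobox repressor of anterior forebrain and pituitary, at 27.5, 26.7 and 34.7 CPM at day 9, against 4.29, 4.46 and 4.51 CPM at day 6 (log2 fold change 2.73 ± 0.18, adjusted p = 2.4e-11). 15 HOX genes of the 3′ end of the clusters, which mark more posterior levels, gave a summed level of 0.0402 to 1.53 CPM at day 9 and 0.751 to 1.59 CPM at day 6, and of the 7 tested HOXB2 had the lowest edgeR p, 0.141 unadjusted. LMX1A also belongs to the placode and inner ear list, of which 5 of 12 tested fell and 3 rose, and on TPM values 8 fell and 2 rose. PAX2, a paired-box factor of ear and kidney, was at 9.16, 9.36 and 8.64 CPM at day 9, against 0.536, 1.27 and 0.859 CPM at day 6 (log2 fold change 3.36 ± 0.36, adjusted p = 1.4e-07), while OTOGL, of the inner ear matrix, was at 21.9, 15.1 and 19.7 CPM at day 9, against 72.0, 97.1 and 145 CPM at day 6 (log2 fold change -2.43 ± 0.23, adjusted p = 4.1e-07). Their summed level was 218 to 224 CPM at day 9 and 391 to 504 CPM at day 6, and the otic markers FOXI1 and OC90 were at 0 throughout.

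**Figure D2:**
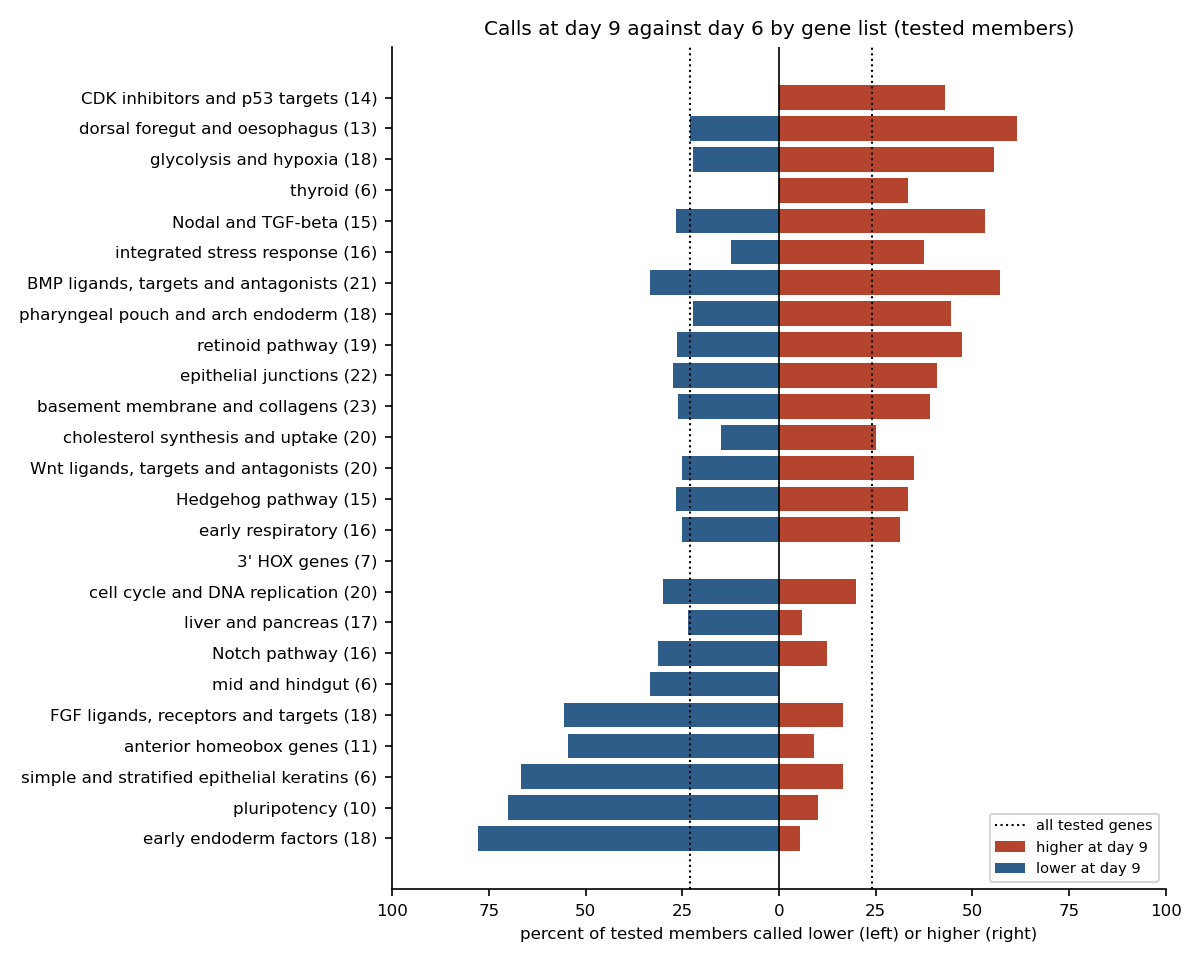
Share of tested members called higher (right) or lower (left) at day 9 in 25 gene lists, in percent, with the number tested in brackets. The dotted lines mark the shares over all tested genes, 24.0% higher and 22.9% lower. Early endoderm, pluripotency, keratin, anterior homeobox and FGF lists reached furthest left, and the dorsal foregut, BMP and glycolysis lists furthest right.

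BMP ligands fell while most BMP target genes rose. BMP signals are secreted dimers that activate SMAD factors, which in turn induce ID genes and the feedback inhibitors SMAD6, SMAD7 and BAMBI. All 4 ligands tested fell. BMP4, a ligand of ventral foregut (chr14:53949736-53956891), was at 198, 166 and 207 CPM at day 9, against 741, 684 and 718 CPM at day 6 (log2 fold change -1.91 ± 0.13, adjusted p = 3.0e-09). BMP2 was at 25.8, 13.3 and 17.8 CPM at day 9, against 245, 206 and 159 CPM at day 6 (log2 fold change -3.31 ± 0.27, adjusted p = 3.5e-07). BMP7 fell by 0.47 on the log2 scale. BMP5 was at 1.005, 2.38 and 0.518 CPM at day 9, against 1.34, 2.71 and 3.005 CPM at day 6, with overlapping days, and was no longer called without day 9 replicate 1 (edgeR adjusted p = 0.21), day 9 replicate 3 (0.068), day 6 replicate 2 (0.063) or day 6 replicate 3 (0.16). Of 9 tested targets and feedback inhibitors 8 rose, and MSX1 was not called. ID2, an inhibitor of bHLH factors, was at 184, 164 and 162 CPM at day 9, against 49.7, 47.6 and 67.7 CPM at day 6 (log2 fold change 1.62 ± 0.11, adjusted p = 4.9e-11). BAMBI, a decoy receptor, was at 508, 431 and 538 CPM at day 9, against 89.4, 79.7 and 146 CPM at day 6. SMAD7 was at 67.9, 61.3 and 61.3 CPM at day 9, against 23.6, 22.1 and 32.1 CPM at day 6. In all 3, each day 9 library lay above each day 6 library. ID1, ID3 and ID4 changed less, with log2 fold changes of 0.93 ± 0.20, 0.58 ± 0.14 and 0.62 ± 0.17, and SMAD6 and MSX2 had 1.004 ± 0.13 and 2.59 ± 0.47. ID3 was not called on TPM values (limma adjusted p = 0.06). The secreted antagonists split, with NOG and GREM1 higher (3.41 ± 0.42 and 1.56 ± 0.23) and CHRD lower (-1.39 ± 0.19). FST was at 119, 54.5 and 40.4 CPM at day 9, against 159, 136 and 120.3 CPM at day 6 and its call was lost without any single library other than day 9 replicate 1, with edgeR adjusted p of 0.059 to 0.14. Of the receptors, BMPR1B fell by 1.23 and BMPR2 had a log2 fold change of 0.62 ± 0.07. In the whole list 12 of 21 tested genes rose and 7 fell.

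The Hedgehog target genes PTCH1 and GLI1 rose as well. In this pathway SHH relieves the inhibition of SMO by PTCH1, and GLI factors then induce PTCH1 and GLI1. PTCH1 was at 425, 528 and 473 CPM at day 9, against 168, 142 and 168 CPM at day 6 (log2 fold change 1.57 ± 0.25, adjusted p = 2.1e-04). GLI1, a transcription factor that the pathway induces, was at 44.3, 47.7 and 47.5 CPM at day 9, against 19.2, 11.1 and 16.1 CPM at day 6 (log2 fold change 1.57 ± 0.27, adjusted p = 2.1e-04). Both were without overlap between days. SHH itself was at 87.6, 55.0 and 59.1 CPM at day 9, against 30.2, 24.5 and 27.0 CPM at day 6, higher in each day 9 library, but missed the threshold (log2 fold change 1.34 ± 0.52, adjusted p = 0.053, edgeR). HHIP, a secreted inhibitor that the pathway also induces, was at 0.683, 6.81 and 1.90 CPM at day 9, against 7.91, 8.12 and 8.05 CPM at day 6, with day 9 replicate 2 near the day 6 level. Its fall (-1.85 ± 0.54) was no longer called without day 9 replicate 1 (edgeR adjusted p = 0.052), in the 6 untreated libraries alone (0.15) or with the pseudogene share as a covariate (0.063). CDON, a co-receptor, fell by 0.75 on the log2 scale, and GLI3 had a log2 fold change of 0.50 ± 0.08. Over the list 5 of 15 tested genes rose and 4 fell (against 24.0% and 22.9% of all tested genes), and on TPM values 4 rose and 8 fell. These counts were 4 and 2 with day 6 replicate 2 alone, and 5 and 2 with the pseudogene share as a covariate. The 250 bases before 1 of the 5 RefSeq starts of PTCH1 (GRCh38.p14, chr9:95509267-95509516, minus strand, written 5′ to 3′ along the gene) are shown because they hold the GLI motif GACCACCCA. The motif was searched on both strands and was found as TGGGTGGTC, in capitals, beginning 172 bases before that start.
PTCH1: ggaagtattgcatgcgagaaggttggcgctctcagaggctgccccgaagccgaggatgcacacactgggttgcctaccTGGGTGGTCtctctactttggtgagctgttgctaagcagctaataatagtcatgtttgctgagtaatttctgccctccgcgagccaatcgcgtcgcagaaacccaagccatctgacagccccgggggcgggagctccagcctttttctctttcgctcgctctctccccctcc
Of 35116 such windows of RefSeq starts 70 held the motif (0.199%), and of the 24 windows of 13 Hedgehog list genes this was the only one. A match describes the letters of the window and is not a binding site.

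**Figure D3:**
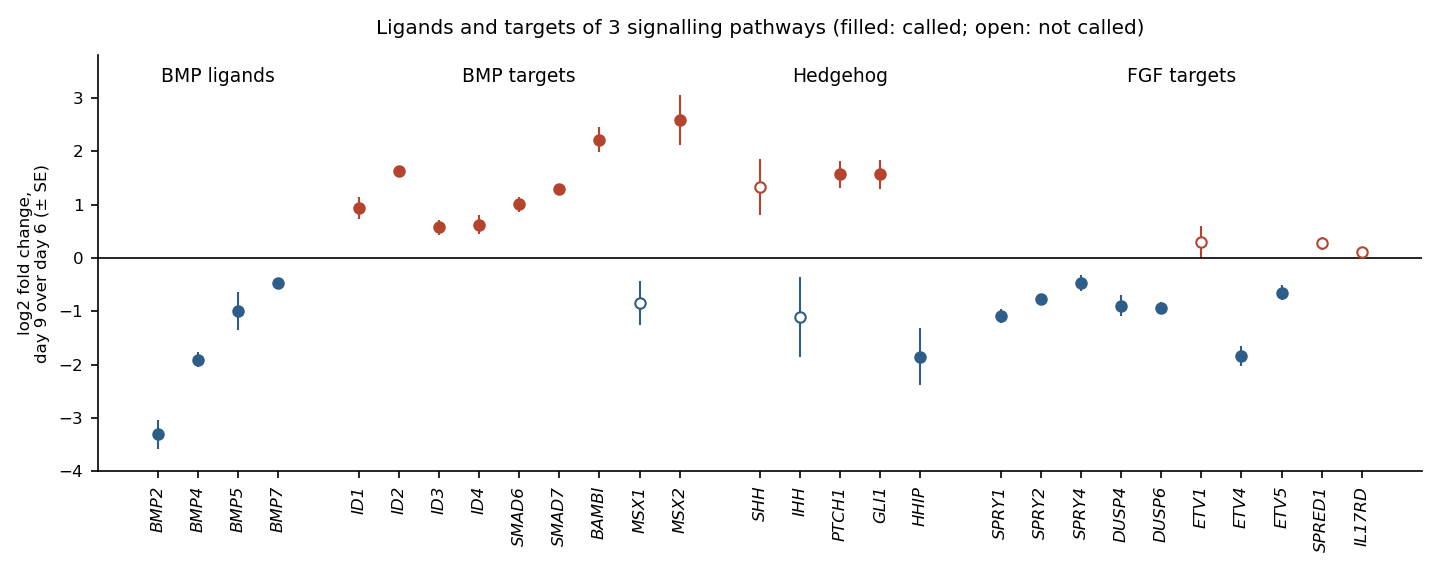
Log2 fold change of day 9 over day 6 with its SE for BMP ligands and targets, Hedgehog ligands and targets, and FGF feedback targets. Filled points were called and open points were not. The 4 BMP ligands lay below 0 and 8 of 9 BMP targets above it, PTCH1 and GLI1 lay above 0, and the 7 called FGF targets lay below 0.

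Most FGF feedback genes fell. FGF receptors signal through ERK, which induces the inhibitors SPRY and DUSP and the ETS factors ETV4 and ETV5. Of 10 such genes tested 7 fell and the other 3 were not called. ETV4 was at 8.64, 6.64 and 9.33 CPM at day 9, against 28.4, 25.9 and 34.4 CPM at day 6 (log2 fold change -1.84 ± 0.19, adjusted p = 3.7e-08). SPRY1 was at 52.2, 63.7 and 56.3 CPM at day 9, against 114, 139 and 109.9 CPM at day 6. The ERK phosphatase DUSP6 was at 48.9, 48.2 and 44.4 CPM at day 9, against 103, 92.8 and 76.4 CPM at day 6. Each was lower in all day 9 libraries. SPRY4, with a log2 fold change of -0.48 ± 0.15, was no longer called without day 9 replicate 2 (edgeR adjusted p = 0.051), day 9 replicate 3 (0.059) or day 6 replicate 3 (0.054). Nor was it called with the pseudogene share as a covariate (edgeR adjusted p = 0.18). Of the receptors, FGFR1 was at 236, 227 and 215 CPM at day 9, against 467, 458 and 408 CPM at day 6 and fell, whereas FGFR2, the receptor of foregut epithelium, was at 243, 279 and 231 CPM at day 9, against 136, 165 and 136 CPM at day 6 and rose. FGF8, a ligand of pharyngeal endoderm, had a log2 fold change of 0.79 ± 0.20, which was not called on TPM values (limma adjusted p = 0.063). FGF10 had one of -1.33 ± 0.23. In the list as a whole 3 of 18 tested genes rose and 10 fell.

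In the Wnt list 7 of 20 tested genes rose and 5 fell (against 24.0% and 22.9% of all tested genes), with 3 of 6 ligands higher. On TPM values 7 rose and 7 fell. WNT5A, a ligand that acts mostly without beta-catenin, was at 91.4, 60.3 and 85.5 CPM at day 9, against 9.65, 14.6 and 22.6 CPM at day 6 (log2 fold change 2.32 ± 0.29, adjusted p = 2.2e-05). Its relative WNT5B was at 63.7, 70.0 and 60.3 CPM at day 9, against 7.64, 8.28 and 7.30 CPM at day 6 (log2 fold change 3.07 ± 0.18, adjusted p = 3.9e-11). Of the secreted antagonists, FRZB was at 10.3, 4.60 and 4.84 CPM at day 9, against 119, 102 and 56.1 CPM at day 6 (log2 fold change -3.56 ± 0.51, adjusted p = 9.5e-05). SFRP1 was at 125, 158 and 155 CPM at day 9, against 349, 351 and 299 CPM at day 6. Both of these ligands were higher and both antagonists lower at day 9 without overlap. Of the targets of beta-catenin, LEF1 and AXIN2 had log2 fold changes of 2.05 ± 0.24 and 0.60 ± 0.12, and SP5 fell (1.17, 0 and 0.173 CPM at day 9, against 8.58, 1.59 and 2.90 CPM at day 6). NKD1, a feedback inhibitor, was at 15.6, 17.4 and 16.9 CPM at day 9, against 16.8, 17.0 and 18.5 CPM at day 6 and was not called (edgeR adjusted p = 0.55). SP5 was no longer called with day 6 replicate 2 alone (edgeR adjusted p = 0.3).

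Of 15 tested Nodal and TGF-beta genes 8 rose and 4 fell, against 24.0% and 22.9% of all tested genes. On TPM values 4 rose and 5 fell. TGFB3, a ligand, was at 22.5, 20.3 and 21.8 CPM at day 9, against 5.09, 4.77 and 5.47 CPM at day 6 (log2 fold change 2.07 ± 0.25, adjusted p = 1.7e-06). PMEPA1, a target and inhibitor of SMAD signalling, was at 11.2, 10.2 and 12.6 CPM at day 9, against 2.55, 4.93 and 2.58 CPM at day 6 (log2 fold change 1.80 ± 0.20, adjusted p = 1.4e-07). TGFBR2, the type II receptor, was at 13.9, 20.1 and 22.8 CPM at day 9, against 41.7, 57.3 and 41.2 CPM at day 6 (log2 fold change -1.38 ± 0.14, adjusted p = 5.4e-08). NODAL, the ligand that drives endoderm formation, was at 6.59, 1.87 and 3.11 CPM at day 9, against 24.7, 10.3 and 7.94 CPM at day 6, lower in each day 9 library, but its call was lost without day 6 replicate 1 (edgeR adjusted p = 0.097). The list had 1 fall in place of 4 with day 6 replicate 2 alone, and 2 without day 9 replicate 1. In the Notch pathway 2 of 16 tested genes rose and 5 fell, against 24.0% and 22.9% of all tested genes. LFNG, a glycosyltransferase that modifies Notch receptors, was at 6.19, 7.49 and 7.43 CPM at day 9, against 97.6, 99.9 and 74.9 CPM at day 6 (log2 fold change -3.74 ± 0.17, adjusted p = 9.2e-14). The ligand JAG1 was at 79.2, 114 and 70.7 CPM at day 9, against 214, 254 and 222 CPM at day 6 (log2 fold change -1.39 ± 0.28, adjusted p = 0.0011). HES1, the main target of Notch, was at 28.8, 31.5 and 30.6 CPM at day 9, against 48.5, 51.9 and 47.9 CPM at day 6, while the receptor NOTCH1 was at 131, 117 and 99.2 CPM at day 9, against 43.4, 43.8 and 48.5 CPM at day 6 (log2 fold change 1.37 ± 0.14, adjusted p = 2.4e-07). NOTCH1 thus rose while HES1, LFNG and JAG1 fell. Of the Notch list 3 genes fell with day 6 replicate 2 alone, and on TPM values 1 rose and 5 fell.

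Although no RA was added, genes of retinoid handling changed. Of 19 tested 9 rose and 5 fell, against 24.0% and 22.9% of all tested genes. On TPM values 4 rose and 5 fell. CYP26A1, an enzyme that degrades RA, was at 149.9, 130.2 and 94.2 CPM at day 9, against 61.4, 58.2 and 84.9 CPM at day 6 (log2 fold change 0.88 ± 0.18, adjusted p = 0.001), and this call was lost on log2(TPM + 0.1) (limma adjusted p = 0.083). STRA6, a receptor for the retinol carrier, was at 48.8, 55.8 and 52.4 CPM at day 9, against 24.0, 26.7 and 28.4 CPM at day 6 (log2 fold change 0.97 ± 0.13, adjusted p = 1.5e-06), and ALDH1A2, which makes RA, was at 2.97, 5.79 and 3.11 CPM at day 9, against 0.938, 1.27 and 0.966 CPM at day 6 (log2 fold change 1.83 ± 0.33, adjusted p = 9.2e-05). The receptor gene RARB, itself a target of RA, was at 28.0, 37.3 and 34.6 CPM at day 9, against 70.1, 75.9 and 71.3 CPM at day 6 (log2 fold change -1.16 ± 0.12, adjusted p = 4.7e-08). The RA-binding protein CRABP2 was at 63.6, 64.3 and 70.3 CPM at day 9, against 164, 136 and 216 CPM at day 6 (log2 fold change -1.39 ± 0.15, adjusted p = 1.7e-06). RARB and CRABP2 were lower and STRA6 and ALDH1A2 higher in every day 9 library. ALDH1A3, which also makes RA, fell by 2.40 on the log2 scale.

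Most pluripotency genes fell. 7 of 10 tested fell and 1, LIN28B, rose. POU5F1, the pluripotency factor OCT4, was at 0.924, 0.340 and 0.346 CPM at day 9, against 4.96, 3.66 and 1.82 CPM at day 6 (log2 fold change -2.27 ± 0.46, adjusted p = 4.2e-04). ZFP42, a zinc finger marker of pluripotent cells, was at 2.57, 1.02 and 1.21 CPM at day 9, against 22.1, 26.4 and 15.6 CPM at day 6. L1TD1, an RNA-binding protein of these cells, was at 3.50, 3.74 and 5.01 CPM at day 9, against 36.3, 35.3 and 23.1 CPM at day 6. DPPA4, a chromatin protein, was at 12.7, 10.4 and 8.12 CPM at day 9, against 45.7, 51.6 and 43.4 CPM at day 6. These 4 were lower in every day 9 library than in any day 6 library. SALL4 fell by 1.16 on the log2 scale. LIN28A, which blocks let-7 maturation, averaged 2189 ± 146 CPM at day 9 and 2889.9 ± 267 CPM at day 6 (SD, n = 3 each) and fell by 0.40. MIR302CHG, the host gene of the miR-302 cluster of pluripotent cells, was named after its values were seen and was at 4.22, 0.851 and 0.864 CPM at day 9, against 81.6, 88.6 and 62.7 CPM at day 6 (log2 fold change -4.75 ± 0.35, adjusted p = 4.6e-08).

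Epithelial adhesion genes shifted in composition. Of 22 tested genes of junctions and epithelial identity, 9 rose and 6 fell, against 24.0% and 22.9% of all tested genes. On TPM values 7 rose and 8 fell. CDH1, the epithelial cadherin, was at 580.2, 389 and 483 CPM at day 9, against 253, 242 and 203 CPM at day 6 (log2 fold change 1.06 ± 0.13, adjusted p = 2.2e-06). CDH2, the neural and mesenchymal cadherin, was at 640.3, 418 and 512 CPM at day 9, against 1041, 1032 and 983 CPM at day 6 (log2 fold change -0.96 ± 0.12, adjusted p = 1.0e-06). GRHL1, a grainyhead factor of epithelia, was at 128, 117 and 135 CPM at day 9, against 32.7, 29.6 and 33.4 CPM at day 6. The tight junction gene CLDN4 was at 224, 158 and 169 CPM at day 9, against 64.2, 69.7 and 44.6 CPM at day 6. OVOL1, a repressor of mesenchymal traits, was at 9.68, 6.81 and 8.12 CPM at day 9, against 0.670, 0.637 and 0.322 CPM at day 6. CDH1, GRHL1, CLDN4 and OVOL1 were higher and CDH2 lower in each day 9 library. CLDN18, a claudin of lung and stomach, had 24 counts at day 6 and none at day 9, at least 13.4-fold lower with day 9 set to 3 counts over the group. Of 6 tested keratin genes 4 fell and 1 rose, with day 6 replicate 2 alone 2 fell and none rose, and none rose without day 9 replicate 1 or on TPM values. The simple keratin genes KRT8, KRT18 and KRT19 had log2 fold changes of -0.41 ± 0.10, -0.34 ± 0.11 and -0.51 ± 0.09. KRT8 was no longer called with day 6 replicate 2 alone (edgeR adjusted p = 0.063), and KRT18 without day 9 replicate 2 (0.071) or day 6 replicate 1 (0.074).

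Matrix genes changed in both directions. Of 23 tested genes of basement membrane and collagens 9 rose and 6 fell, against 24.0% and 22.9% of all tested genes. On TPM values 8 rose and 8 fell. COL1A2, a fibrillar collagen chain, was at 476, 514 and 542 CPM at day 9, against 90.2, 102 and 106 CPM at day 6 (log2 fold change 2.36 ± 0.14, adjusted p = 7.2e-10). NID2, a basement membrane linker, was at 197, 250.4 and 167 CPM at day 9, against 47.2, 69.7 and 46.4 CPM at day 6 (log2 fold change 1.92 ± 0.15, adjusted p = 1.4e-08). LAMB1, a laminin chain, was at 2104, 2288 and 2202 CPM at day 9, against 1124, 1051 and 1105 CPM at day 6 (log2 fold change 1.01 ± 0.07, adjusted p = 9.6e-11). FN1, fibronectin, was at 6225, 5641 and 4526 CPM at day 9, against 13088, 13095 and 9749.8 CPM at day 6 (log2 fold change -1.13 ± 0.13, adjusted p = 8.3e-07). COL4A6, a type IV collagen chain, was at 374, 386 and 462 CPM at day 9, against 1112, 1031 and 1301 CPM at day 6 (log2 fold change -1.497 ± 0.10, adjusted p = 1.6e-10). COL1A2, NID2 and LAMB1 were higher and FN1 and COL4A6 lower in all 3 day 9 libraries than at day 6. COL1A1, the partner chain of COL1A2, was at 147, 304 and 138 CPM at day 9, against 258, 249.9 and 265 CPM at day 6, with 1 day 9 library above the day 6 range and 2 below it (edgeR adjusted p = 0.23). COL1A2 is also a mesenchymal marker. Of 15 tested mesenchyme genes 2 rose and 7 fell. PDGFRA, a receptor of mesenchymal cells, was at 1.45, 10.2 and 3.802 CPM at day 9, against 21.4, 32.5 and 24.7 CPM at day 6. The matrix protein DCN had at most 0.0402 CPM at day 9. The summed level of the list was 918 to 1458 CPM at day 9 and 1091 to 1150 CPM at day 6.

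Glycolytic genes were mostly higher, with 10 of 18 tested genes of glycolysis and hypoxia higher and 4 lower. LDHA, which makes lactate, was at 612, 752 and 667 CPM at day 9, against 168, 202 and 189 CPM at day 6 (log2 fold change 1.86 ± 0.14, adjusted p = 8.8e-09). PDK1, which restrains pyruvate entry into mitochondria, was at 70.7, 88.9 and 79.8 CPM at day 9, against 18.9, 25.3 and 25.3 CPM at day 6 (log2 fold change 1.77 ± 0.13, adjusted p = 3.0e-10). PFKFB4, a regulator of glycolytic flux, was at 56.0, 69.6 and 60.0 CPM at day 9, against 16.9, 18.6 and 19.7 CPM at day 6 (log2 fold change 1.73 ± 0.15, adjusted p = 2.3e-08). VEGFA, a growth factor for blood vessels that hypoxia also induces, moved the other way, at 215, 179 and 164 CPM at day 9, against 1046, 1122 and 769 CPM at day 6 (log2 fold change -2.39 ± 0.14, adjusted p = 1.4e-10). Each of these genes was without overlap between days. In the glycolysis list 8 rose and 1 fell with day 6 replicate 2 alone, and likewise with the pseudogene share as a covariate. In the cholesterol list 5 of 20 tested genes rose and 3 fell, against 24.0% and 22.9% of all tested genes. Without day 9 replicate 1, 5 of these genes rose and 6 fell, and on TPM values 2 rose and 9 fell. With the pseudogene share as a covariate 2 rose and 3 fell.

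Cell cycle genes changed little in size: of 20 tested, 4 rose and 6 fell, each by under 2-fold. These shares were close to those over all tested genes. With day 6 replicate 2 alone 1 rose and 3 fell, without day 9 replicate 1 2 rose and 6 fell, and on TPM values none rose and 9 fell. With the pseudogene share as a covariate 3 rose and 3 fell. MCM6, a subunit of the replicative helicase, was at 192, 200 and 179 CPM at day 9, against 377, 371 and 353 CPM at day 6 (log2 fold change -0.95 ± 0.08, adjusted p = 1.3e-09), and CDC6, which loads that helicase, fell by 0.63 on the log2 scale. MKI67, a proliferation marker, was at 591, 548 and 584 CPM at day 9, against 485, 516 and 501 CPM at day 6 (log2 fold change 0.20 ± 0.07, adjusted p = 0.017). Its call was lost without day 9 replicate 1, day 9 replicate 3, day 6 replicate 1 or day 6 replicate 3, with edgeR adjusted p of 0.052 to 0.069. It was also lost with the pseudogene share as a covariate (edgeR adjusted p = 0.13). On log2(TPM + 1) the change of MKI67 was 0.012 (limma adjusted p = 0.92). The CDK inhibitor and p53 target CDKN1A was at 92.8, 56.7 and 46.5 CPM at day 9, against 29.9, 22.6 and 13.7 CPM at day 6 (log2 fold change 1.64 ± 0.32, adjusted p = 8.5e-04), with all day 9 libraries above day 6. Of 14 tested genes of that list 6 rose and the other 8 were not called. With day 6 replicate 2 alone 2 rose, with the pseudogene share as a covariate 1, and without day 9 replicate 1 4 rose and 2 fell. On TPM values 3 rose and 2 fell. Of 16 tested genes of the integrated stress response 6 rose and 2 fell, without day 9 replicate 1 2 rose and 5 fell, and with day 6 replicate 2 alone 2 rose and 1 fell. On TPM values 2 of these genes rose and 5 fell, and with the pseudogene share as a covariate 1 rose and 3 fell. DDIT4, an inhibitor of mTOR that stress induces, was at 107, 70.6 and 56.3 CPM at day 9, against 29.1, 20.4 and 15.5 CPM at day 6 (log2 fold change 1.90 ± 0.26, adjusted p = 3.7e-05), highest in day 9 replicate 1. ATF4, the central factor of that response, was at 562, 438 and 419 CPM at day 9, against 496, 469 and 402 CPM at day 6 (edgeR adjusted p = 0.61). Day 9 replicate 1 was also the deepest library, with the highest share of mitochondrial counts, and its part in these list counts was not tested beyond leaving it out.

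Markers of other cell types were present and moved with time. Of 13 tested endothelial genes 9 fell and the other 4 were not called. The summed level of these markers was 108 to 209 CPM at day 9 and 499 to 659 CPM at day 6, of which VWF gave 180.3 to 254 CPM at day 6. TEK, an angiopoietin receptor, was at 7.15, 10.9 and 7.26 CPM at day 9, against 21.9, 30.6 and 19.96 CPM at day 6 (log2 fold change -1.56 ± 0.17, adjusted p = 1.1e-07), lower in every day 9 library. KDR, the VEGF receptor, was at 7.59, 62.5 and 56.5 CPM at day 9, against 83.0, 138 and 118 CPM at day 6. CDH5, the endothelial cadherin, was at 1.41, 20.9 and 21.8 CPM at day 9, against 30.2, 50.0 and 47.4 CPM at day 6. In both genes day 9 replicate 1 was far below the other day 9 libraries. KDR was no longer called without day 6 replicate 2 (edgeR adjusted p = 0.08) or day 6 replicate 3 (0.066), nor was CDH5 (0.074 and 0.077). Without day 9 replicate 1 5 endothelial genes fell, with day 6 replicate 2 alone 6 did, and with the pseudogene share as a covariate 4 did. VEGFA, described above, fell between the same groups, and the part of endothelial cells in any result was not tested.

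Of 18 tested cardiac and smooth muscle genes 6 fell and 2 rose, with a summed level of 351 to 536 CPM at day 9 and 622 to 1094 CPM at day 6. TTN, the giant sarcomere protein, was at 16.4, 11.6 and 16.4 CPM at day 9, against 392, 271 and 175 CPM at day 6 (log2 fold change -4.20 ± 0.34, adjusted p = 3.9e-07). MYL7, an atrial myosin light chain, was at 12.7, 5.45 and 8.12 CPM at day 9, against 44.8, 23.7 and 26.1 CPM at day 6 (log2 fold change -1.66 ± 0.28, adjusted p = 2.5e-04). ACTA2, smooth muscle actin, rose, at 51.2, 55.5 and 55.5 CPM at day 9, against 17.8, 17.8 and 13.4 CPM at day 6 (log2 fold change 1.73 ± 0.18, adjusted p = 7.2e-07). The ventricular myosin gene MYH7 had at most 1.11 CPM in any of these libraries. Without day 9 replicate 1 3 genes of this list fell, and with day 6 replicate 2 alone 6 fell and 1 rose. Neural genes summed to 171 to 181 CPM at day 9 and 387 to 509 CPM at day 6, and 5 of 8 tested fell and 1 rose. PAX6, a factor of brain and eye, was at 0.241, 0.170 and 0.173 CPM at day 9, against 7.37, 5.57 and 3.11 CPM at day 6 (log2 fold change -4.53 ± 0.48, adjusted p = 1.4e-07). NES, an intermediate filament of progenitors, was at 126, 136 and 134 CPM at day 9, against 443, 393 and 318 CPM at day 6 (log2 fold change -1.55 ± 0.12, adjusted p = 1.3e-09), whereas DCX, of migrating neurons, was at 21.3, 16.5 and 27.0 CPM at day 9, against 5.36, 8.12 and 4.19 CPM at day 6 (log2 fold change 1.91 ± 0.32, adjusted p = 2.0e-04). The neural factors SOX1, NEUROG2 and NEUROD1 were at 0 in all 6 libraries. Neural crest genes summed to 192 to 213 CPM at day 9 and 164 to 179 CPM at day 6. Of 6 tested 1 rose, ERBB3, and 3 fell, among them SOX10, the crest and glial factor, at 0.442, 0.511 and 0 CPM at day 9, against 5.50, 3.82 and 2.68 CPM at day 6. FOXD3, PAX3 and TFAP2B of crest had at most 0.215 CPM. Globin reads varied within each day, with HBB at 30.3, 7.15 and 358 CPM at day 9, against 67.2, 7.003 and 37.6 CPM at day 6, and the blood marker HBE1 was at 0. RUNX1, a factor of blood and many epithelia, was the only one of 5 tested blood genes to rise, at 8.04, 7.15 and 9.85 CPM at day 9, against 2.01, 2.39 and 0.966 CPM at day 6 (log2 fold change 2.27 ± 0.33, adjusted p = 5.7e-06).

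**Figure D4:**
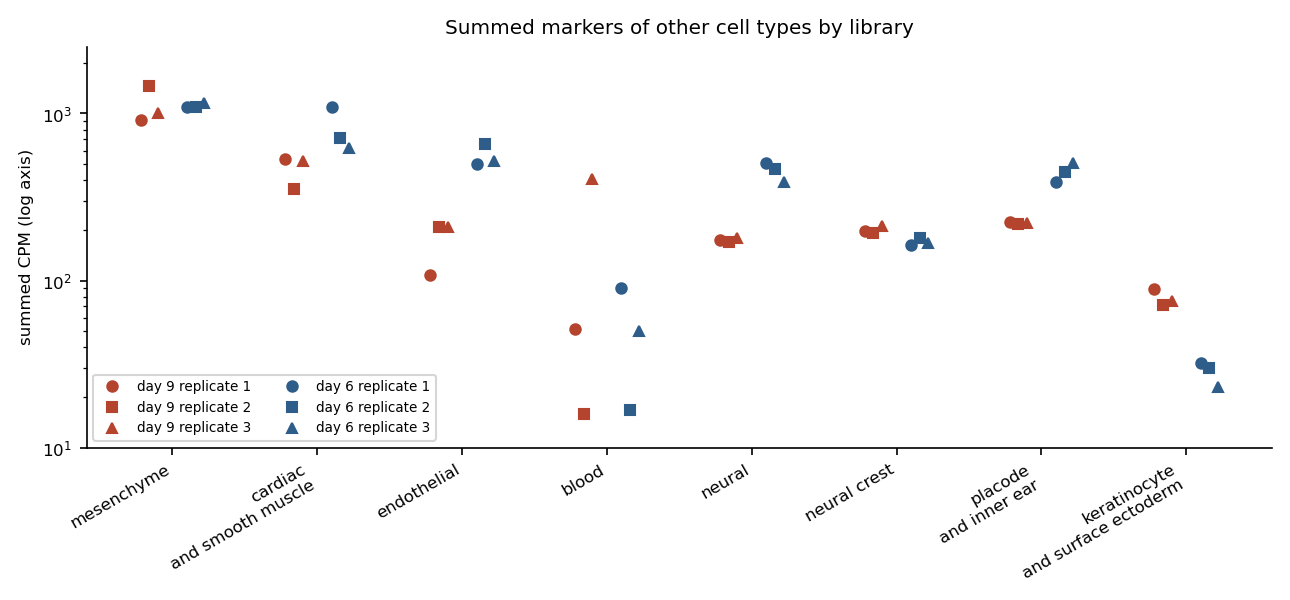
Summed CPM of marker lists of other cell types in each library, on a log axis, day 9 in red left of day 6 in blue, with a symbol for each replicate number. Endothelial sums were 108 to 209 CPM at day 9 and 499 to 659 CPM at day 6, the neural sums were also lower at day 9, and blood sums reached 403 CPM in 1 day 9 library.

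The change from day 6 to day 9 was then set beside that of cells that had received RA up to day 6. The 2 time changes share no library, so their difference could be tested by an interaction in the same edgeR fit. The difference, the log2 change without RA minus that after RA, was called for 7906 genes (50.9%). It was positive for 4044 (26.0%) and negative for 3862 (24.9%). On log2(TPM + 1) 40.6% of called differences were in the first class, in place of 51.2% on counts, and with upper quartile factors 58.3%. After RA 9128 genes were called between day 9 and day 6 (58.8%), 4423 higher (28.5%) and 4705 lower (30.3%). Of genes called in both time changes, 2876 moved in the same direction and 1780 in opposite directions, and the difference was called for all 1780 that moved oppositely and for 1069 that moved alike.

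TLX1, FOXE1, LMX1A, SOX17 and VWF moved in the same direction with and without RA, and their differences missed the threshold, which does not show that the changes were alike. FOXE1 after RA was at 19.0 ± 19.4 CPM at day 9 and 0.529 ± 0.191 CPM at day 6 (SD, n = 3 each), and the difference of the log2 time changes was 0.56 ± 2.14, adjusted p = 0.85. LMX1A after RA was at 0 ± 0 CPM at day 9 and 0.574 ± 0.133 CPM at day 6, and with no day 9 reads its fitted difference is not given. SOX17 after RA was at 2.61 ± 1.08 CPM at day 9 and 21.5 ± 0.961 CPM at day 6 (0.29 ± 0.33, adjusted p = 0.49).

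Pharyngeal PAX genes moved in opposite directions. After RA, PAX9 was at 5.44 ± 2.43 CPM at day 9 and 0.155 ± 0.135 CPM at day 6 and PAX1 at 3.16 ± 2.16 CPM at day 9 and 0.223 ± 0.213 CPM at day 6, so that they rose after RA and fell in untreated cells. The differences were -7.29 ± 0.59, adjusted p = 8.8e-10 for PAX9 and -6.64 ± 0.78, adjusted p = 5.1e-06 for PAX1. OTX2 after RA was at 83.9 ± 26.8 CPM at day 9 and 46.3 ± 0.519 CPM at day 6 (-2.20 ± 0.28, adjusted p = 1.3e-05), and DMBX1 also differed (-5.74 ± 1.05, adjusted p = 2.8e-04). HHEX, not called without RA, was at 245 ± 42.4 CPM at day 9 and 32.3 ± 2.22 CPM at day 6 after it (-3.10 ± 0.39, adjusted p = 1.8e-05).

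The change of signalling genes differed as well. PTCH1 after RA was at 99.97 ± 27.1 CPM at day 9 and 156 ± 23.0 CPM at day 6 (2.22 ± 0.36, adjusted p = 1.9e-04) and GLI1 at 5.01 ± 1.94 CPM at day 9 and 6.97 ± 1.09 CPM at day 6 (2.07 ± 0.47, adjusted p = 0.0017), without the rise found in untreated cells. BMP4 fell in both, with no difference called (-0.45 ± 0.19, adjusted p = 0.061), whereas BMP2 after RA was at 294 ± 67.1 CPM at day 9 and 123 ± 6.66 CPM at day 6 (-4.57 ± 0.36, adjusted p = 1.7e-07). The BMP targets ID1, ID2, ID3, SMAD6 and SMAD7 rose in both, and by less without RA, with differences of -2.69, -2.40, -2.53, -1.68 and -2.04. CYP26A1 after RA was at 2.43 ± 1.01 CPM at day 9 and 321 ± 37.6 CPM at day 6, so that its untreated rise stood against a fall (7.99 ± 0.34, adjusted p = 6.9e-11). ETV4, ETV5 and SPRY4 fell without RA and had differences of -2.26, -2.59 and -2.95. The FGF list as a whole was split, with 8 of 18 tested genes having a positive called difference and 7 a negative one. Over all tested genes these shares were 26.0% and 24.9%. The feedback genes DUSP4 and SPRED1 were among the positive ones, and both calls were lost under several alternatives.

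Most cell cycle and cardiac genes differed between the 2 time changes. Of 20 cell cycle genes 16 had a positive difference, against 26.0% of all tested genes, and the other 4 were not called. On TPM values 13 were positive. After RA MCM2 and PCNA, helicase and clamp of DNA replication, had log2 time changes of -1.19 and -1.01, against 0.23 and -0.14 without RA. Of 18 cardiac and smooth muscle genes 17 had a negative difference, against 24.9% of all tested genes. MYH6, an atrial myosin, was at 723 ± 171 CPM at day 9 and 0.738 ± 0.607 CPM at day 6 after RA, against 0.197 ± 0.275 CPM at day 9 and 1.52 ± 1.25 CPM at day 6 without it (-13.40 ± 1.53, adjusted p = 6.7e-06). HESX1 and PITX1, higher at day 9 in untreated cells, had differences of 3.99 ± 0.37, adjusted p = 6.8e-09 and 3.27 ± 0.46, adjusted p = 2.0e-05. TP63 rose more without RA (1.71 ± 0.58, adjusted p = 0.02), but this was not called with day 6 replicate 2 alone (1.40, edgeR adjusted p = 0.057), with the pseudogene share as a covariate (1.34, 0.057) or on counts thinned to the smallest total (1.37, 0.054).

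**Figure D5:**
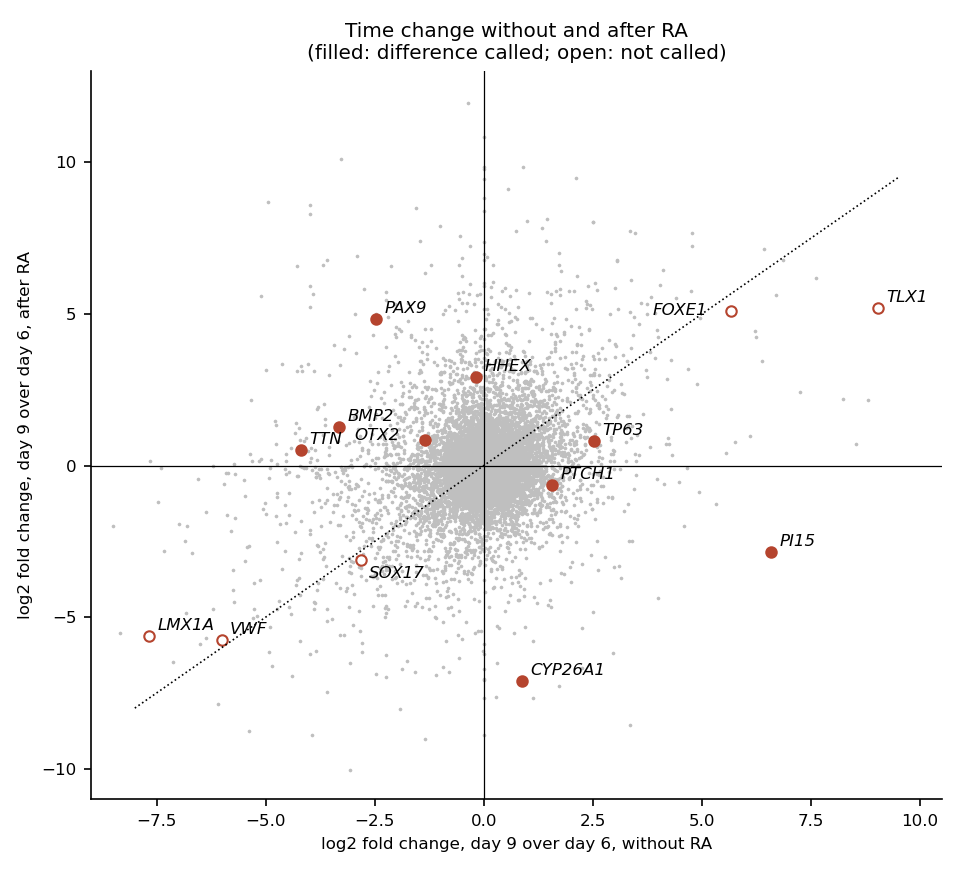
Log2 fold change of day 9 over day 6 without RA (x axis) and after RA (y axis) for each tested gene, with genes named in the text marked. Filled points had a called difference and open points did not, and the dotted line marks equal changes. PAX9, BMP2, PTCH1 and CYP26A1 lay in quadrants of opposite sign, and the position of genes with 0 reads in a group depends on the prior count of the fit.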

How the data were processed

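RNA was extracted in bulk from 18 samples of H1-derived foregut and sequenced with a stranded mRNA kit, per the labels' protocols. Per the submitters' processing notes, the aligner was STAR 2.7.9 and the genome build GRCh38. Which program, gene models and strand option produced the counts is not given in the sources used here. The authors deposited raw read counts per gene for all samples, used for every main result, and TPM values, used as an alternative. Of 35025 rows, 36 had no symbol and were left out (0.00102% of counts).

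The counts were tested with edgeR 4.0.16 (R 4.3.3) by robust quasi-likelihood fits with TMM factors and a minimum count of 10, all 18 libraries sharing the estimate of spread. The tests were day 9 over day 6 in untreated cells, and the difference between that change and the change after RA, with Benjamini-Hochberg adjustment over 15531 genes. SEs are those of the fitted log2 fold change. A group with no reads was set to 3 counts for a bound on the fold, and groups of 1 to 3 counts have a ratio with a 95% exact interval, which covers counting error only. Alternatives were RLE and upper quartile factors, other filters, the 6 untreated libraries alone, DESeq2 1.42.0, limma 3.58.1 on log2(TPM + 1) and log2(TPM + 0.1), a replicate block, each library left out, day 6 replicate 2 alone, the pseudogene share as a covariate, and thinning. The test code was checked on simulated counts.

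The genes, the 34 gene lists and the comparisons were chosen with earlier results of these data known. Named genes were the 12 largest rises and falls at 5 CPM or more with no overlap, the 20 genes fixed for this comparison, up to 5 called members of each list at 2 CPM or more with the largest changes, and the 6 largest differences each way. Other called list members (for example BMP7, KLF5, NKX2-5, SMAD7 and FGFR2) were named after their values were seen, to complete a subgroup. Some genes that these rules name are not reported here. Of 539 list genes, 536 were found in the table. Sequences and coordinates come from RefSeq on GRCh38.p14.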

Additional observations from a re-analysis of the deposited data

Results flagged for a closer look

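Between untreated and RA-treated cells, several genes fixed or named by rank had log2 time changes whose difference was called by the edgeR interaction. The value given for each is the change without RA minus the change after RA, so a positive value means a larger rise or smaller fall without RA. Among the genes fixed for this comparison, CYP26A1 had 7.99, PTCH1 2.22, TP63 1.71 and MKI67 0.863. The negative values were -7.29 for PAX9, -3.10 for HHEX, -2.20 for OTX2 and -1.15 for GATA6. Of these, TP63 was not called with day 6 replicate 2 alone, with the pseudogene share as a covariate or on counts thinned to the smallest total, at 1.40, 1.34 and 1.37.

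The largest positive differences were 9.45 for PI15, 9.13 for TCF21, 8.99 for VWA5B1, 8.93 for CDH26 and 8.78 for GPR37L1, followed by CYP26A1. TCF21, a factor of visceral mesenchyme, averaged 5.70 ± 2.75 CPM at day 9 and 0.589 ± 0.513 CPM at day 6 without RA, and 0.144 ± 0.163 CPM at day 9 and 9.49 ± 2.69 CPM at day 6 after RA (SD, n = 3 each). CDH26, a cadherin, averaged 1.98 ± 0.392 CPM at day 9 and 0.454 ± 0.164 CPM at day 6 without RA, and 0.325 ± 0.321 CPM at day 9 and 30.3 ± 4.61 CPM at day 6 after RA. VWA5B1 was called in untreated cells in the fit of all libraries, but leaving out single libraries ended that call, with edgeR adjusted p of 0.052 to 0.07 without day 9 replicate 2, day 9 replicate 3, day 6 replicate 1 or day 6 replicate 3. That call was also lost with the pseudogene share as a covariate (edgeR adjusted p = 0.2) and on log2(TPM + 1) (limma adjusted p = 0.19).

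Among the largest negative differences were -13.63 for SMYD1, -13.40 for MYH6, -12.60 for MYBPC3, -12.32 for UNC45B and -10.37 for NYAP2. The first 4 are genes of the sarcomere or its assembly, and their day 9 means after RA were 33.8 ± 6.99, 723 ± 171, 45.8 ± 10.7 and 46.5 ± 8.82 CPM. In untreated cells SMYD1, MYBPC3 and NYAP2 had no reads at day 9, and UNC45B none at day 6 after RA, so the size of these differences depends on the prior count of the fit. NYAP2 was not called with day 6 replicate 2 alone or with the pseudogene share as a covariate.

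In day 6 replicates 1 and 3 the 31 pseudogenes at least 10-fold higher in the treated libraries summed to 132.8 and 205.1 CPM. These values lie outside the main measurement and above the 6.84 to 11.5 CPM of the other untreated libraries. Another 29 pseudogenes were at least 10-fold higher in the other untreated libraries than in the treated ones. They summed to 1331 and 949 CPM in day 6 replicates 1 and 3, against 1858 to 2591 CPM in the other untreated libraries. In the treated ones they summed to 24.1 to 69.8 CPM, and the 31 to 456 to 1115 CPM. The pseudogene share is the summed CPM of the 31 as a percentage of that of both sets. It was 9.08% and 17.8% in day 6 replicates 1 and 3, 0.32% to 0.57% in the other untreated libraries and 93.8% to 95.5% in the treated ones. Because the sets differ in level, it is not a mixing fraction. The part of this split in the results was not tested beyond the fits without these libraries and with that share as a covariate.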

How the results depend on the processing

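No called gene that is named or on a list changed the sign of its time change under any alternative. RLE and upper quartile factors, no filter, DESeq2, the 6 untreated libraries alone and thinning kept the counts of genes called within 1.5 times. At least 5 CPM in an untreated group left 630 higher and 662 lower at 2-fold, with fewer genes tested. On log2(TPM + 1) 2126 genes were higher, 484 of them by 2-fold, and 5511 lower, and on log2(TPM + 0.1) 2147 and 5543. With day 6 replicate 2 alone 4507 genes were called, 2183 higher and 2324 lower, with fewer samples, and 4215 of the 7287 genes were still called (57.8%). With the pseudogene share as a covariate 4830 were still called (66.3%), and the cause was not tested. With a replicate block 7155 of 7287 were still called (98.2%). Deviations of same-numbered libraries correlated at 0.228, 0.135 and 0.0433, and every library correlated best with its own number, but the third value was under 0.1 and no label says that the numbers pair libraries. Leaving out each library gave 6314 to 6947 genes called, 3157 to 3505 higher (960 to 1050 by 2-fold) and 3084 to 3448 lower (1050 to 1163 by 2-fold). For the difference from RA-treated cells it gave 7433 to 7781, 3757 to 3954 positive (1678 to 1801 by 2-fold) and 3651 to 3852 negative (1685 to 1785 by 2-fold). Of the differences from RA-treated cells that were not called on counts, 6 had the opposite sign on log2(TPM + 1), at 1.54 for VGLL1, 3.3 for KRT4, -1.23 for GSC, 1.33 for PAX2, 1.52 for HOXB2 and 0.89 for CLDN18. PAX2 was at 2.27 on log2(TPM + 0.1) and the called difference of HNF4G became 1.87 with day 6 replicate 2 alone, and the cause was not tested. Of 297 called list members and named genes, 197 were called under every alternative in which they were tested. Totals from 5.79 to 25.37 M limit the precision for genes with few counts.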

Other observations

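Further members of the lists changed between the days in untreated cells, by edgeR with p adjusted over all genes. DLX3, a distal-less factor of placode and epidermis, was at 11.1, 10.04 and 10.2 CPM at day 9, against 2.41, 5.41 and 3.005 CPM at day 6 (log2 fold change 1.59 ± 0.23, adjusted p = 5.4e-06). DLX5, of the same family, was at 0.281, 0.340 and 0.346 CPM at day 9, against 3.75, 2.86 and 1.502 CPM at day 6 (log2 fold change -3.08 ± 0.60, adjusted p = 3.7e-04). These 2 genes moved in opposite directions with no overlap between days. RXRG, a retinoid X receptor, was at 4.34, 5.79 and 7.78 CPM at day 9, against 1.07, 1.43 and 1.40 CPM at day 6 and rose (log2 fold change 2.11 ± 0.40, adjusted p = 2.5e-04). PITX1-AS1, antisense to PITX1 and named after its values were seen, was at 4.90, 4.77 and 6.57 CPM at day 9, against 0.402, 0.477 and 0.537 CPM at day 6. With the strand setting of the counting not given, its reads and those of PITX1 cannot be told apart with certainty.

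Among genes of other cell types, the mesenchymal factor TWIST1 was at 1.21, 3.06 and 1.04 CPM at day 9, against 8.31, 10.3 and 7.62 CPM at day 6 (log2 fold change -2.47 ± 0.28, adjusted p = 2.0e-07), and LUM, a matrix protein of connective tissue, at 9.68, 6.81 and 2.42 CPM at day 9, against 24.0, 36.6 and 13.95 CPM at day 6 (log2 fold change -1.75 ± 0.42, adjusted p = 0.0038). The neuronal RNA-binding protein ELAVL4 was at 0.161, 0.170 and 0.346 CPM at day 9, against 5.63, 6.53 and 1.93 CPM at day 6 (log2 fold change -4.47 ± 0.55, adjusted p = 7.5e-07), and the neuronal microtubule protein MAP2 at 12.8, 9.53 and 7.78 CPM at day 9, against 27.9, 35.8 and 40.9 CPM at day 6 (log2 fold change -1.69 ± 0.37, adjusted p = 0.0021). All 4 were lower in every day 9 library than in any day 6 library. TAL1, a factor of blood and endothelium, was at 0.121, 1.70 and 1.21 CPM at day 9, against 2.95, 5.89 and 3.33 CPM at day 6, lowest in day 9 replicate 1, which was also the lowest library for KDR and CDH5.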
